A study of Mus musculus with 6 samples.

Results

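The 9 genes described here encode the Fcγ receptors of mouse macrophages and the proteins that relay or restrain their signal at the membrane. They comprise the receptors Fcgr1, Fcgr2b, Fcgr3 and Fcgr4, the shared signalling chain Fcer1g, the kinases Syk and Lyn, the phosphatase Inpp5d and the phospholipase Plcg2. They were picked by gene symbol out of 57010 annotated genes, and all 9 were among the 15903 genes tested, which had a total count of at least 10. RNA was sequenced from bone marrow-derived macrophages (BMDMs) of 3 Cx3cr1GFP mice on a C57BL/6J background, so control and treated cells alike carry GFP in the Cx3cr1 locus. Marrow cells of every mouse were grown with the growth factor M-CSF and were either left unstimulated (control, n = 3) or given 62 mM excess NaCl for 24 h (NaCl, n = 3). Only adherent cells went into the RNA, so cells that had come off the dish were not sampled. The age and sex of the mice are not given in the sources used here. The mouse numbers pair each NaCl library with a control library.

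Fcγ receptors bind the constant part of IgG and let macrophages take up antibody-coated particles. FcγRI (Fcgr1), FcγRIII (Fcgr3) and FcγRIV (Fcgr4) are activating receptors that work together with the FcRγ chain (Fcer1g). Its cytoplasmic tail carries an ITAM, a motif with a pair of tyrosines that Src family kinases such as Lyn phosphorylate and that Syk then binds. Syk activates phospholipase Cγ2 (Plcg2), which releases the second messengers for calcium entry and protein kinase C. FcγRIIB (Fcgr2b) is the inhibitory receptor. It carries an ITIM with a tyrosine of its own, to which the lipid phosphatase SHIP1 (Inpp5d) is recruited.

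The coding sequences of these motifs are shown because the activating and inhibitory arms of the family differ in them. They were read 5′ to 3′ from GENCODE M21 transcripts (GRCm38), with the tyrosine codons of the motif in capitals. The ITAM of Tyrobp (DAP12), the other ITAM chain that macrophages express, stands beside that of Fcer1g. The Fcer1g stretch covers codons 65 to 79 of 86, the Tyrobp stretch codons 92 to 106 of 114, and the Fcgr2b stretch codons 317 to 322 of 340.
Fcer1g ITAM: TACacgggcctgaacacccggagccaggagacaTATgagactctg
Tyrobp ITAM: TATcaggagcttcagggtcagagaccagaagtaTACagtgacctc
Fcgr2b ITIM: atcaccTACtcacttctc

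Of these genes, 4 lie next to each other on chromosome 1 in GRCm38, where GENCODE M21 places Fcgr2b at chr1:170958617-170976547 on the minus strand, Fcgr4 at chr1:171018920-171029761 on the plus strand, Fcgr3 at chr1:171051174-171064935 on the minus strand and Fcer1g at chr1:171229572-171234365 on the minus strand. Inpp5d lies elsewhere on the same chromosome, at chr1:87620312-87720507 on the plus strand. Fcgr1 lies at chr3:96282909-96293969 on the minus strand, Lyn at chr4:3678115-3813122, Plcg2 at chr8:117498291-117635142 and Syk at chr13:52583173-52648792, the last 3 on the plus strand. Fcgr2b and Fcgr3 share a stretch of coding sequence that is identical over 129 bases and lies in codons 93 to 136 of Fcgr2b. It is shown because a 75 bp read that falls inside it cannot be placed on either gene.
Fcgr2b and Fcgr3, shared stretch: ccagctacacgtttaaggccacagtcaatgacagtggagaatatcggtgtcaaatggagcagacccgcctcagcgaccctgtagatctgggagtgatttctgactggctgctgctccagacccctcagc
Of the 75-base windows along their exons, 5.43% of those of Fcgr2b and 5.42% of those of Fcgr3 also occur in another gene. All of those of Fcgr3 are shared with Fcgr2b, whereas the most frequent partner of Fcgr2b is Cplx2 (2.13% of its windows). STAR counts uniquely mapping reads only, so reads from the 94 coding windows that Fcgr2b and Fcgr3 share would be missing from the counts of both. The share was 14.4% for Lyn, of which Gm11787 held most (10.1%), and 0.232% for Inpp5d. No window was shared for the other 5 genes.

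The question addressed was whether excess salt changed the expression of the IgG receptors and of their first signalling steps. Total counts ranged from 4088065 (NaCl, mouse 3) to 20123570 (control, mouse 3), and the 9 genes held 0.199% to 0.275% of the counts of a library. Values below are CPM (counts scaled to a common library size after TMM normalization), given in the order of mice 1, 2 and 3 and as mean ± SD of 3 mice. Fold changes are log2 of NaCl over control with their standard error (SE), from edgeR's quasi-likelihood test with Benjamini-Hochberg adjustment over 15903 genes and a threshold of 0.05. A fit that leaves the mouse out is given first, beside a fit in which the mouse is a term (the replicate block).

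None of the 9 genes passed the threshold in either direction. Without the block, 0.478% of all genes tested were called higher and 0.176% lower, and with the block 4.6% were called higher and 4.3% lower. DESeq2, which called 1.54% of genes higher and 0.975% lower, called no gene of the 9 either. At an unadjusted p under 0.05 the counts were 0 of 9 without the block, 2 of 9 with the block (Fcgr2b and Fcgr4) and 0 of 9 in DESeq2. Over all genes tested the corresponding shares were 12.6%, 22.1% and 10.6%, so the count with the block was at the background. The fitted changes ran from -0.29 for Fcgr2b to 0.17 for Plcg2, and 8 of the 9 were below 0. Their median was -0.17, against -0.01 over all genes tested. Their median size was 0.17 regardless of sign, against 0.16 over the 6084 genes with a mean of at least 28.0 CPM, the level of the lowest of the 9.

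**Figure D1:**
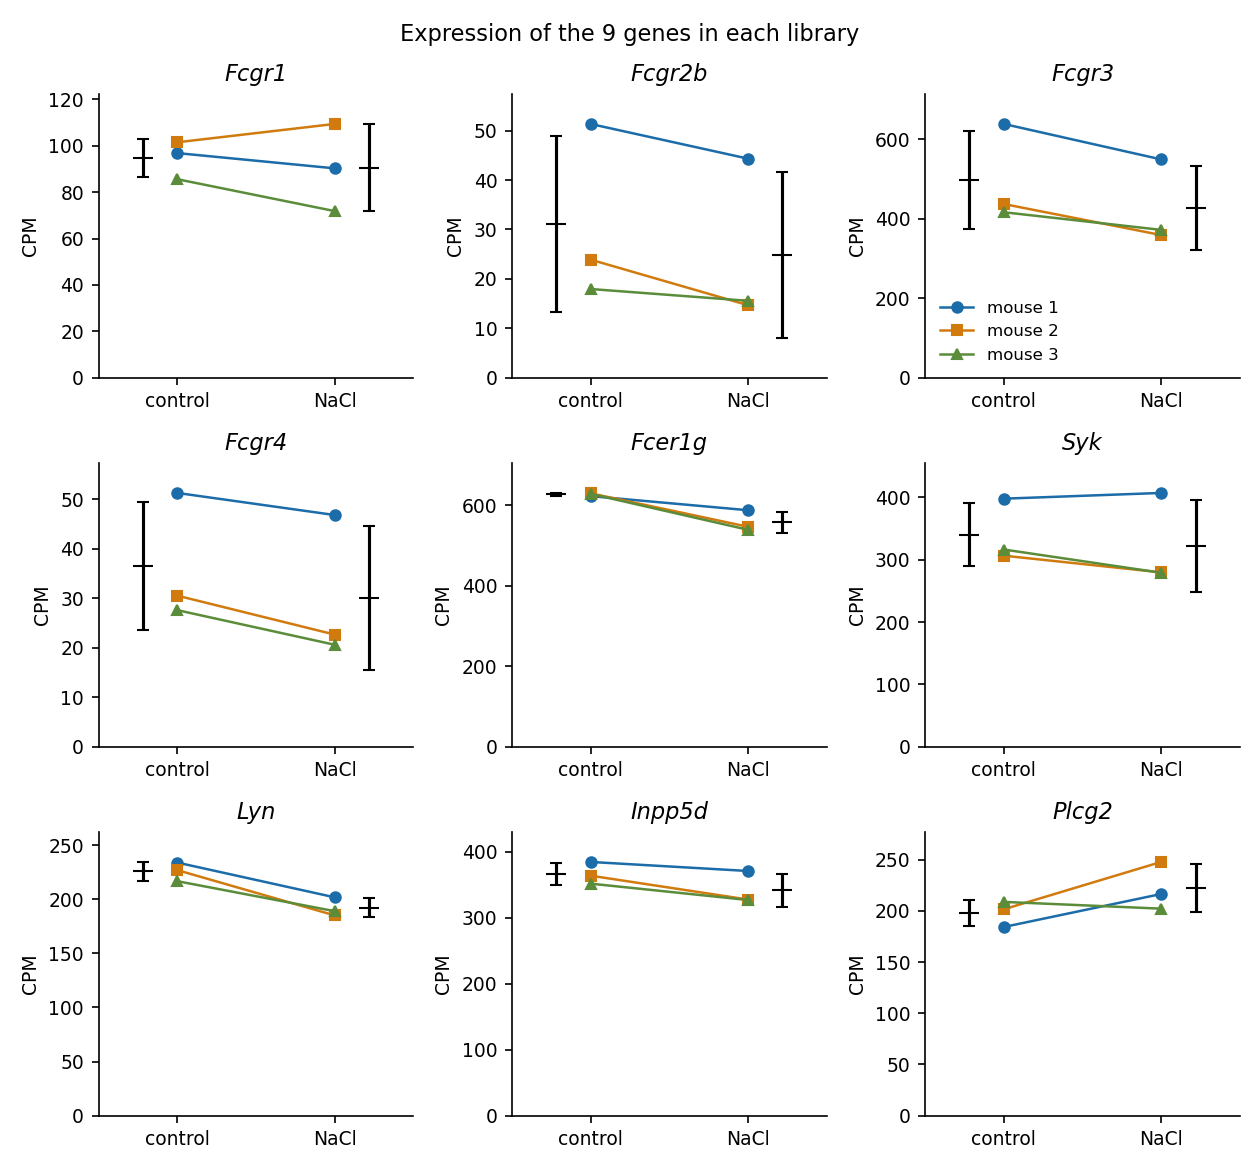
CPM of the 9 genes in each of the 6 libraries, every axis starting at 0, control and NaCl libraries of a mouse joined by a line and group means with SD drawn beside them. The lines of mouse 1 lie above those of mice 2 and 3 for Fcgr2b, Fcgr3, Fcgr4 and Syk, in proportion most for Fcgr2b and least for Syk. The NaCl points lie below all control points only for Fcer1g and Lyn.

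Among the activating receptors, Fcgr1, the high-affinity receptor for IgG, was at 96.8, 102 and 85.6 CPM in control libraries and at 90.3, 109 and 71.8 CPM in NaCl libraries. The groups overlapped, with mouse 2 higher and mice 1 and 3 lower after NaCl. The means were 94.6 ± 8.19 and 90.5 ± 18.8 CPM, and the log2 fold change was -0.06 (SE 0.16, adjusted p = 0.926) without the block and -0.08 (SE 0.12, adjusted p = 0.779) with it. The 95% interval with the block ran from -0.32 to 0.17.

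Fcgr3, the low-affinity activating receptor and the most abundant of the 4 receptors here, was at 639, 437 and 417 CPM in controls and at 550, 359 and 372 CPM after NaCl. Every mouse was lower after NaCl, by 0.22, 0.28 and 0.16 on the log2 scale, yet the NaCl library of mouse 1 stood above the control libraries of mice 2 and 3. The log2 fold change was -0.22 (SE 0.21, adjusted p = 0.719) without the block and -0.22 (SE 0.12, adjusted p = 0.267) with it.

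Fcgr4, which binds IgG2a and IgG2b, was at 51.3, 30.5 and 27.6 CPM in controls and at 46.8, 22.7 and 20.6 CPM after NaCl. Here too every mouse was lower, and the groups overlapped because mouse 1 stood above the others in both. Its log2 fold change was -0.26 (SE 0.33, adjusted p = 0.8) without the block and -0.32 (SE 0.13, adjusted p = 0.151) with it, with a 95% interval from -0.59 to -0.04 in the latter.

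Fcgr2b, the inhibitory receptor, was at 51.4, 23.9 and 18.0 CPM in controls and at 44.4, 14.7 and 15.6 CPM after NaCl. It was the receptor with the widest spread between mice, and the NaCl library of mouse 1 exceeded both other controls. Of its exonic bases, 2.68% overlap the antisense gene Gm38204. The NaCl library of mouse 3, the shallowest, held 65 of its counts. Its log2 fold change was -0.29 (SE 0.47, adjusted p = 0.853) without the block and -0.38 (SE 0.14, adjusted p = 0.109) with it, with a 95% interval from -0.67 to -0.08 in the latter. In the fit without the block, the fitted level after NaCl was 81.9% of control for Fcgr2b, 83.7% for Fcgr4, 85.9% for Fcgr3 and 96.1% for Fcgr1.

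Fcer1g, the ITAM chain of the activating receptors, differed little between mice, at 623, 630 and 629 CPM in controls and at 588, 547 and 539 CPM after NaCl. All NaCl libraries lay below all controls, and the mean was 89.0% of control. The log2 fold change of -0.17 (SE 0.12) did not pass the threshold, with an adjusted p = 0.606 without the block and 0.432 with it.

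Lyn, the Src family kinase that phosphorylates both ITAMs and ITIMs, was at 234, 227 and 217 CPM in controls and at 202, 185 and 189 CPM after NaCl. Its groups did not overlap either, and its mean was 85.0% of control. Its log2 fold change was -0.23 (SE 0.12, adjusted p = 0.444) without the block and -0.23 (SE 0.11, adjusted p = 0.227) with it. Of the exonic bases of Lyn, 6.09% overlap the antisense gene Gm26857, and the counting did not use strand.

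In all, 2 of the 9 genes (Fcer1g and Lyn) had every NaCl library below every control library, a pattern shown by 10.1% of all genes tested. No gene of the 9 had every NaCl library above every control, which 8.92% of all genes did. Within mice, 6 of the 9 were lower after NaCl in all 3 (Fcgr2b, Fcgr3, Fcgr4, Fcer1g, Lyn and Inpp5d), against 23.4% of all genes. These counts are descriptions of a small chosen set. In bulk RNA, less RNA of a gene per cell and fewer cells expressing it cannot be told apart.

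Syk, the kinase that docks on phosphorylated ITAMs, was at 398, 307 and 317 CPM in controls and at 407, 280 and 279 CPM after NaCl. Mouse 1 was slightly higher after NaCl and mice 2 and 3 were lower. For Syk the log2 fold change was -0.08 (SE 0.18, adjusted p = 0.901) without the block and -0.09 (adjusted p = 0.711) with it.

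Inpp5d, the phosphatase SHIP1 that removes a phosphate from the lipid product of PI3-kinase, was at 385, 364 and 352 CPM in controls and at 371, 328 and 327 CPM after NaCl. The NaCl value of mouse 1 lay within the range of the controls. For Inpp5d the log2 fold change was -0.10 (SE 0.12, adjusted p = 0.781) without the block and -0.10 (adjusted p = 0.672) with it, and the interval of the latter ran from -0.34 to 0.13.

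Plcg2 was the only gene of the 9 with a fitted change above 0. Its values were 184, 202 and 209 CPM in controls and 216, 248 and 202 CPM after NaCl, higher in mice 1 and 2 and lower in mouse 3. For Plcg2 the log2 fold change was 0.17 (SE 0.13, adjusted p = 0.654) without the block and 0.16 (SE 0.12, adjusted p = 0.467) with it.

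**Figure D2:**
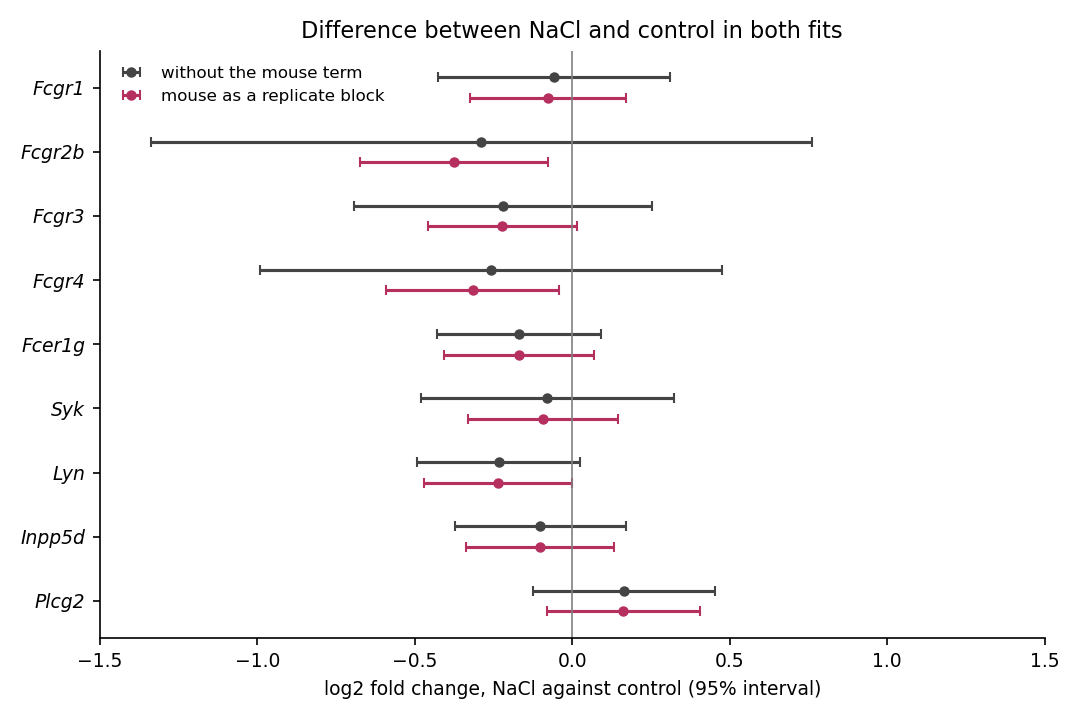
Log2 fold change of NaCl against control for the 9 genes, with 95% intervals, from edgeR without and with the block. With the block the intervals of Fcgr2b and Fcgr4 lie below 0 and that of Lyn reaches 0, and no gene passes the adjusted threshold.

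For 4 of the 9 genes, named below, the larger differences were between mice. Each mouse gave a single pair of libraries, so mouse cannot be told apart from culture or processing. An F test of the mouse terms in the fit with the block was added after the data were seen. It called 8.89% of all genes tested, and 838 of the 6084 genes with a mean of at least 28.0 CPM. Of the 9 genes it called 4 (Fcgr2b, Fcgr3, Fcgr4 and Syk). All 4 were highest in mouse 1, in control and NaCl libraries alike. Relative to the mean of mice 2 and 3, mouse 1 was higher by 1.44 (SE 0.14) on the log2 scale for Fcgr2b (adjusted p = 4.21e-07 over the 3 mice), by 0.96 (SE 0.14) for Fcgr4 (adjusted p = 7.66e-05), by 0.59 (SE 0.12) for Fcgr3 (adjusted p = 0.00528) and by 0.45 (SE 0.12) for Syk (adjusted p = 0.0444). These point estimates are larger than those of NaCl against control for the same genes in the same fit. When the control library of mouse 1 was left out of the fit without the block, the log2 fold changes of Fcgr2b (0.28), Fcgr4 (0.07), Syk (0.05) and Fcgr3 (0.0056) were above 0. Mouse 3 against mouse 2 gave no call among the 9, with a lowest adjusted p of 0.547. For Fcgr1, with an adjusted p of 0.168 between mice, mouse 1 was at 0.03 relative to the mean of the other mice. Fcer1g (0.967), Lyn (0.888), Plcg2 (0.754) and Inpp5d (0.745) had adjusted p-values between mice far above the threshold.

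Of the macrophage and monocyte markers, 2 also differed between mice. Mrc1, the mannose receptor, was higher in mouse 1 by 1.64 (adjusted p = 1e-08 between mice) and Ccr2, the chemokine receptor of monocytes, by 1.63 (adjusted p = 3.48e-07), both on the log2 scale. The 5 monocyte markers tested, of 6 listed, summed to 261 and 313 CPM in the control and NaCl libraries of mouse 1 and to 93.6 to 172 CPM in those of mice 2 and 3, and most of that sum in mouse 1 was Ccr2. Without Ccr2, a sum added after the data were seen, mouse 1 was at 49.9 and 55.3 CPM, against 88.8 and 61.0 CPM in the controls and 54.9 and 52.0 CPM in the NaCl libraries of mice 2 and 3. The rest of the list was thus lowest in mouse 1 among controls and close to the others among NaCl libraries. Of the 11 neutrophil genes tested, the same F test called 4, all lower in mouse 1 than the mean of mice 2 and 3. They were S100a9 (-0.82, adjusted p = 0.000119), S100a8 (-0.69, 0.000751), Ltf (-0.56, 0.0102) and Ngp (-0.55, 0.0406). Cd79b of the B cell list was higher in mouse 1 (1.2, adjusted p = 0.00215). Gata2, of the mast cell and basophil list, was lower (-0.60, adjusted p = 0.0127). The part of these markers in the receptor differences was not tested.

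**Figure D3:**
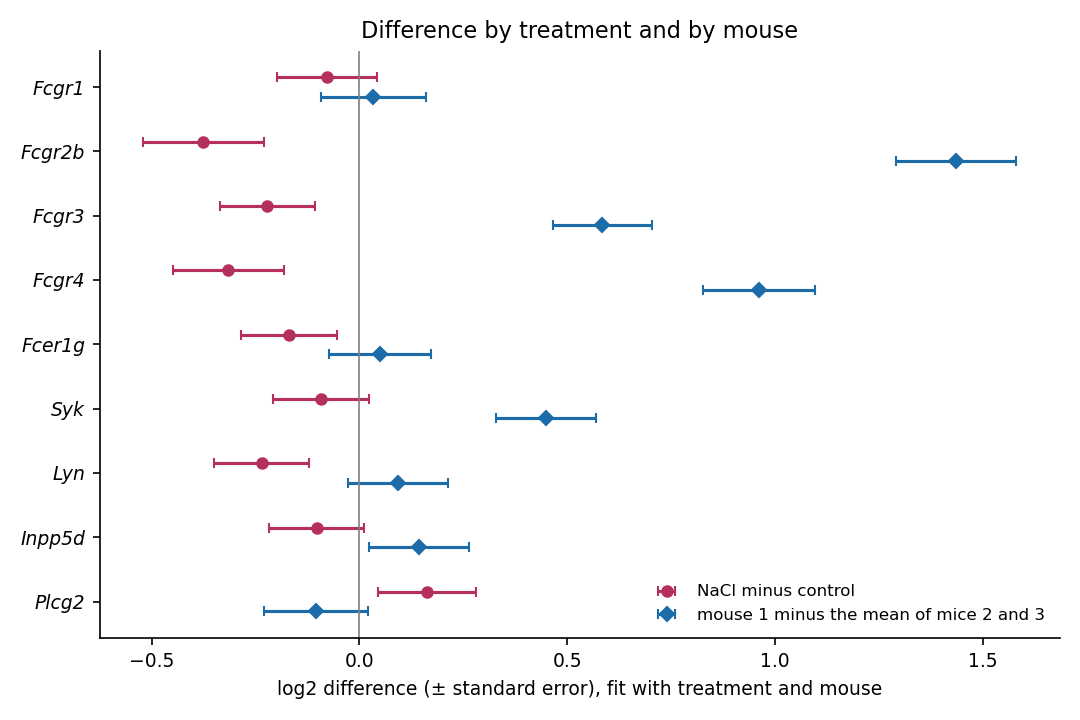
For each of the 9 genes, the log2 difference of NaCl from control and the log2 difference of mouse 1 from the mean of mice 2 and 3, both from edgeR with the mouse as a block, with standard errors. The mouse difference reaches 1.44 for Fcgr2b and 0.96 for Fcgr4, whereas no NaCl difference is larger than 0.38 in size.

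The balance between the inhibitory and the activating receptors was described by the log2 ratio of Fcgr2b counts to the summed counts of Fcgr1, Fcgr3 and Fcgr4 within each library, which needs no scaling between libraries. It was -3.94, -4.57 and -4.88 in controls and -3.95, -5.07 and -4.90 after NaCl. The group means of -4.47 ± 0.48 and -4.64 ± 0.60 differed by less than their spread. Within mice the NaCl library differed by -0.02, -0.49 and -0.02, so only mouse 2 moved appreciably. Fcgr2b counts were 6.53%, 4.20% and 3.39% of the activating receptors' counts in controls and 6.46%, 2.99% and 3.35% after NaCl. The log2 ratio of Lyn to Inpp5d counts, the kinase against the lipid phosphatase, was chosen after the data were seen and was not tested. It was -0.72, -0.68 and -0.70 in controls and -0.88, -0.83 and -0.79 after NaCl. That ratio was lower after NaCl in all 3 mice, and its groups did not overlap. The groups of Lyn alone did not overlap either, so this separation adds little to that of Lyn.

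Levels were compared between genes per kilobase of exon. In control libraries Fcer1g stood at 838 CPM per kb (range 833 to 842) and Fcgr3 at 369 CPM per kb (range 309 to 475). Inpp5d followed at 73.7, Lyn at 65.2, Syk at 56.5, Plcg2 at 46.1, Fcgr1 at 36.6, Fcgr4 at 29.0 and Fcgr2b at 8.16 CPM per kb. Neighbours in this order did not overlap across control libraries except Lyn with Syk and Fcgr1 with Fcgr4. The common chain was therefore the most abundant transcript of the set and the inhibitory receptor the least.

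Beyond the 9 genes, 88 genes of the same pathway were listed in 6 groups, and 75 of them were tested. Without the block 0 were called higher and 1 was called lower (Bank1), and 13 of the 75 had an unadjusted p under 0.05, against 12.6% of all genes tested. With the block 4 were called higher and 8 lower, against 4.6% and 4.3% of all genes tested. Among the 6084 genes with a mean of at least 28.0 CPM, that fit called 432 higher and 377 lower. DESeq2 without a block called 1 of the 75 higher and 2 lower, against 1.54% and 0.975% of all genes. The median log2 fold change of the 75 was -0.06. Of the genes called with the block, Bank1, Inppl1, Fcgrt and Fcrls passed in each of the 3 fits that left out a mouse, and the others did not. Without mouse 1 the counts were 1 higher and 3 lower.

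**Figure D4:**
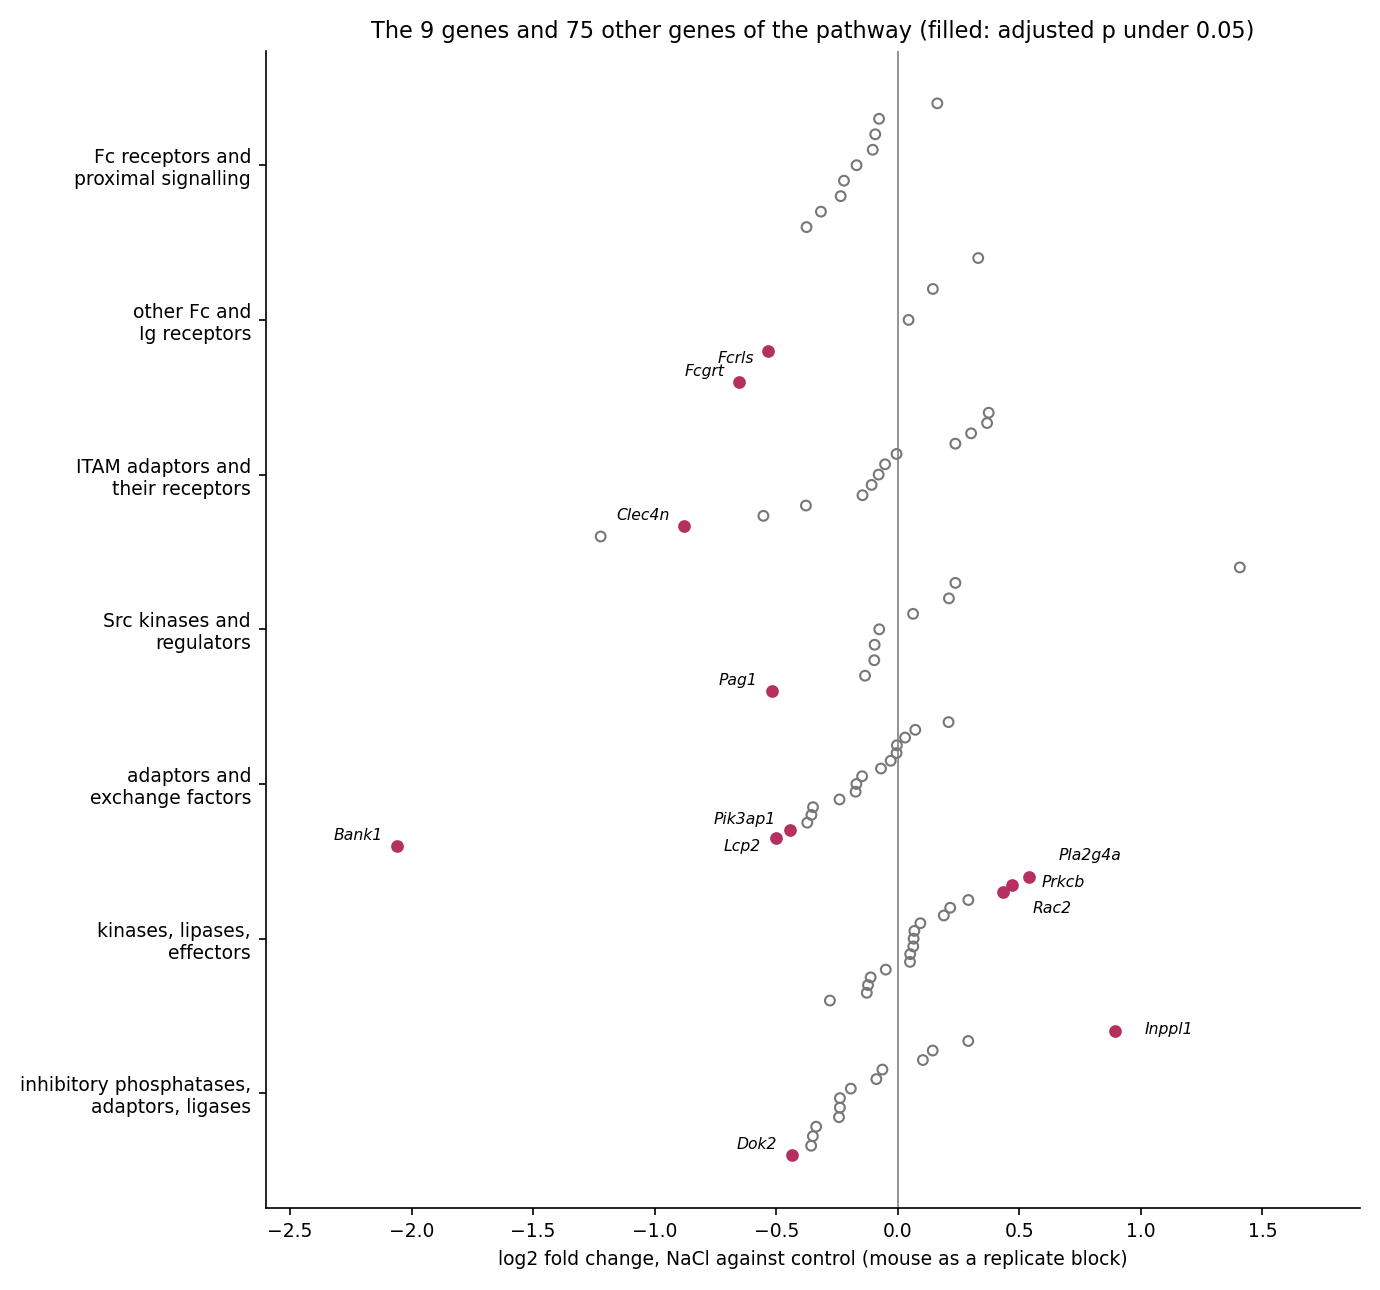
Log2 fold change of NaCl against control, with the replicate block, for the 9 genes and for 75 other genes of the pathway in 6 lists. Filled points, which carry names, have an adjusted p under 0.05: 4 lie above 0, of which Inppl1 is at 0.89, and 8 lie below 0, of which Bank1 is at -2.06.

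Of the other Fc and immunoglobulin receptors, 5 of 13 had enough counts to test, and 2 fell in the fit with the block. Fcgrt, the neonatal Fc receptor that recycles IgG, had mean values of 68.0 CPM in controls and 44.0 CPM after NaCl (log2 fold change -0.65, adjusted p = 0.000808 with and 0.61 without the block). Fcrls, an Fc receptor-like protein of macrophages, had means of 59.3 and 42.8 CPM (-0.53, adjusted p = 0.00775 with and 0.736 without the block). Both also differed between mice in the direction of Fcgr2b, mouse 1 being highest in both groups (adjusted p between mice = 1.79e-07 for Fcgrt and 9.46e-08 for Fcrls). The F test between mice called 8 of the 75 other pathway genes, against 8.89% of all genes tested. Some of them were higher and some lower in mouse 1.

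Of the ITAM chains and the receptors that signal through them, 13 of 15 were tested and 1 fell with the block. That was Clec4n (Dectin-2), a receptor that pairs with FcRγ, at 6.96 CPM in controls and 3.85 CPM after NaCl (-0.88, adjusted p = 0.0126 with the block). The call was lost in DESeq2 with the block (adjusted p = 0.151) and in thinned libraries with the block (adjusted p = 0.091). Tyrobp, whose ITAM is printed above, had values of 884 ± 23.7 and 800 ± 56.7 CPM (-0.14, adjusted p = 0.677 without the block). Of the Src family kinases and their regulators, 9 of 11 were tested and Pag1, a membrane anchor for the inhibitory kinase Csk, fell with the block (29.6 to 20.9 CPM, -0.52, adjusted p = 0.0204). That call too was lost in DESeq2 with the block (adjusted p = 0.108) and in thinned libraries with the block (adjusted p = 0.161). The myeloid kinase Fgr (19.3 and 18.1 CPM, -0.11, adjusted p = 0.855) did not pass.

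Of the 17 adaptors and exchange factors, all tested, 3 fell with the block and none rose. Bank1, a scaffold protein known from B cells that binds Lyn, was at 8.98, 7.15 and 5.19 CPM in controls and at 2.57, 1.27 and 1.44 CPM after NaCl. Its NaCl libraries lay below all controls, and the log2 fold change was -1.97 (SE 0.35, adjusted p = 0.0434) without the block and -2.06 (adjusted p = 7.86e-06) with it. Leaving out any library other than NaCl replicate 1 ended the call without the block, with an adjusted p of up to 0.267. Of the defining B cell markers, Ms4a1 had 3 counts and Pax5 had 0 over the 6 libraries. Of the B cell list, 3 of 8 genes were tested, and their summed CPM was 15.8 to 18.5 in controls and 16.8 to 24.0 after NaCl. That sum joins genes that went different ways. Mean Cd22 was higher after NaCl (9.99 and 13.55 CPM), whereas Cd79b (6.62 and 5.72 CPM) and Cd79a (0.34 and 0.22 CPM) were lower. None of them passed the threshold in either fit. The part of B cell transcripts in the fall of Bank1 was not tested. Lcp2 (SLP-76), an adaptor downstream of Syk, had means of 83.2 ± 2.79 and 58.9 ± 4.97 CPM (-0.50, adjusted p = 0.132 without and 0.00741 with the block). Of its exonic bases, 6.32% overlap the antisense gene 4930469K13Rik. Pik3ap1, an adaptor for PI3-kinase, had means of 798 and 586 CPM (-0.44, adjusted p = 0.0135 with the block). Vav1 (235 and 241 CPM, 0.03, adjusted p = 0.943) and Blnk (130 and 127 CPM, -0.03, adjusted p = 0.963) did not pass.

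Of the 17 kinases, lipases and downstream effectors, all tested, 3 rose with the block and none fell. Prkcb, a protein kinase C isoform, had means of 103 and 142 CPM (0.47, adjusted p = 0.00918 with the block). Pla2g4a, the cytosolic phospholipase that frees arachidonic acid, had means of 51.5 and 75.5 CPM (0.54, adjusted p = 0.00635 with and 0.518 without the block). Between mice Pla2g4a differed in the direction opposite to Fcgrt and Fcrls. Mouse 1 was at -0.92 relative to the mean of mice 2 and 3 (adjusted p between mice = 0.00018). Rac2, a small GTPase of haematopoietic cells, had means of 284 and 390 CPM (0.43, adjusted p = 0.0296 with the block). Its differences within mice were 0.26, 0.82 and 0.22, and without mouse 2 the same fit gave 0.25 (adjusted p = 0.0976). Btk was at 104 and 109 CPM (0.07, adjusted p = 0.866).

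Of the 15 inhibitory phosphatases, adaptors and ligases, 14 were tested, and with the block 1 rose and 1 fell. Inppl1, which encodes SHIP2, the paralog of Inpp5d, was at 251, 275 and 301 CPM in controls and at 394, 655 and 515 CPM after NaCl. Every NaCl library lay above every control, and the log2 fold change was 0.92 (SE 0.18, adjusted p = 0.0615) without the block and 0.89 (adjusted p = 2.58e-05) with it, while DESeq2 without the block gave an adjusted p of 0.000632. Of the exonic bases of Inppl1, 20.3% overlap the antisense gene Gm10602, and 15.7% of its 75-base windows are shared with another gene. The log2 ratio of Inppl1 to Inpp5d counts, added after the data were seen, was -0.62, -0.41 and -0.23 in controls and 0.09, 1.00 and 0.65 after NaCl, below 0 in every control and above 0 in every NaCl library. Dok2, an adaptor that restrains Ras signalling, had means of 128 and 94.8 CPM (-0.44, adjusted p = 0.0158 with the block). Ptpn6 (SHP-1), the protein tyrosine phosphatase that binds ITIMs, had means of 231 and 256 CPM (0.15, adjusted p = 0.688 without the block).

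**Figure D5:**
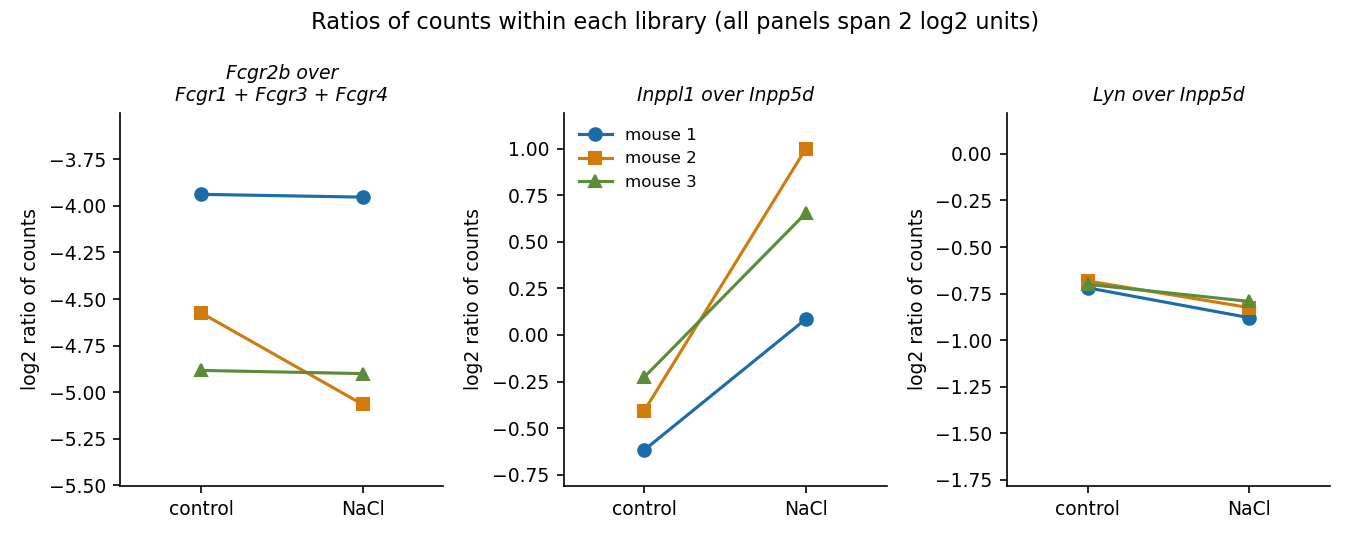
Log2 ratios of counts within each library for Fcgr2b over the summed activating receptors, Inppl1 over Inpp5d, and Lyn over Inpp5d, control and NaCl libraries of a mouse joined by a line. Fcgr2b over the activating receptors changes by -0.49 in mouse 2 and by -0.02 in mice 1 and 3, Inppl1 over Inpp5d is higher after NaCl in all 3 mice, and Lyn over Inpp5d is lower in all 3.

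The label BMDM was checked against markers. The 10 macrophage genes summed to 20150 to 21720 CPM in controls and to 29360 to 37940 CPM after NaCl. Lyz2 (9813 and 19140 CPM, log2 fold change 0.96, adjusted p = 0.0424) had the largest share of that difference. Cd14 (288 and 644 CPM, 1.16, adjusted p = 0.007) also passed without the block. With the block Csf1r was higher too (2083 and 3441 CPM, 0.72, adjusted p = 0.000298). Mrc1 went the other way (365 and 185 CPM, -0.98, adjusted p = 1.39e-05 with and 0.505 without the block). Of the other cells that carry Fcγ or FcεRI receptors, only 1 of the 6 NK cell genes was tested, Klrb1c, at 1.02 to 1.26 CPM in controls and 2.08 to 2.35 CPM after NaCl, and Ncr1, Prf1 and Gzma had 0 counts. The 5 mast cell and basophil genes tested, of 7 listed, summed to 6.37 to 8.57 and 7.15 to 11.97 CPM with Tpsb2 and Cma1 at 0 counts. Neutrophil genes summed to 270 to 569 CPM in controls and 293 to 411 CPM after NaCl, and Mpo and Ngp were lower with the block (adjusted p = 0.0244 and 0.0188). Dendritic cell genes summed to 4.19 to 5.91 and 3.26 to 5.59 CPM. The part of the macrophage and neutrophil markers in the values above was not tested.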

How the data were processed

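RNA of 6 BMDM libraries was sequenced by the authors (75 bp, single-end, not stranded), trimmed with fastp 0.20.0 and aligned with STAR 2.7.10b to mm10 (the submitters' processing notes). The deposited values are raw counts per gene and a normalized signal (each count over the size factor of its library), from which only gene symbols were used. Raw counts were analysed with edgeR 4.0.16 in R 4.3.3 (TMM, glmQLFit and glmQLFTest, total count of at least 10, NaCl against control as in the study's methods). The labels give the mouse of each library, and deviations of libraries of the same mouse from their group means correlated across genes (0.426, 0.151 and 0.217, other pairs -0.35 to 0.124), so a second fit held the mouse as a replicate block. DESeq2 1.42.0, limma 3.58.1, other scalings and filters, thinning to 4088065 counts and leaving out libraries or mice were alternatives, 18 in all. Scripts were tested on simulated data.

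The genes and lists were chosen with earlier results of these data known. All 9 genes are named, as are Tyrobp, Fgr, Ptpn6, Btk, Vav1, Blnk and Lcp2 whatever their values, every listed gene past the threshold without the block, and up to 4 per list and direction with it. Some listed genes are not reported here. The comparison between mice and the ratio of Inppl1 to Inpp5d were chosen after the data were seen. The ratio of Lyn to Inpp5d was likewise chosen then, with no test. Positions, exon lengths and sequences come from GENCODE M21 (GRCm38), matched by Ensembl identifier. The methods name vM32 of GENCODE, made for a later build, so exon lengths may differ from those counted. The flow cytometry of the study was not analysed here.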

Additional observations from a re-analysis of the deposited data

How the results depend on the processing

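No gene of the 9 passed the threshold in any of the 18 alternatives. Leaving out 1 library or 1 mouse turned the sign of 5 of them in places, the log2 fold change running from -0.21 to 0.079 for Fcgr1 (0.013 without mouse 3 in the fit with the block), -1.02 to 0.28 for Fcgr2b, -0.44 to 0.0056 for Fcgr3, -0.73 to 0.069 for Fcgr4 and -0.28 to 0.054 for Syk. Without control replicate 1 those of Fcgr2b, Fcgr3, Fcgr4 and Syk were above 0. Signs also turned for Blnk (-0.11 to 0.051), Fcrls (-1.17 to 0.092), Fgr (-0.22 to 0.029, with 0.014 without control replicate 3) and Vav1 (-0.020 to 0.10). Of the 75 other pathway genes, 0 were higher and 1 lower without the block. The numbers higher were 1 with DESeq2, 4 with the replicate block, 4 with DESeq2 and the block, 1 with total count scaling, 1 with a minimum total count of 1, 4 with thinned libraries and the block, and 0 to 6 when libraries or mice were left out. The numbers lower were 2, 8, 6, 0, 2 and 6 in the same order, 0 with limma-voom, and 0 to 8 with libraries or mice left out. With the block, leaving out mouse 1 gave 1 higher and 3 lower, leaving out mouse 2 gave 6 and 8, and leaving out mouse 3 gave 3 and 8. Over all genes tested, these 3 fits called 469, 758 and 715 higher and 417, 661 and 585 lower. The calls over all genes tested also moved between the 18 alternatives, from 8 to 758 higher and from 0 to 684 lower. The cause was not tested. Bank1 was past the threshold in 11 of the 18 alternatives and missed it with total count scaling (adjusted p = 0.0543) and limma-voom (adjusted p = 0.0608). The difference in the Fcgr2b ratio, -0.17, ran from -0.52 to 0.089 when libraries or mice were left out. With 4088065 counts in NaCl replicate 3, the lowest receptor, Fcgr2b, had 65 counts there, and the 95% intervals in the text bound what 3 mice can resolve.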
